A study of Mus musculus with 6 samples.

Results

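Lysosomes break down what a cell takes up or recycles, and the genes described here are those of their digestive enzymes, membrane proteins and proton pump in mouse epididymal white adipose tissue, a visceral fat depot. The set holds 48 genes, taken by symbol from the 54532 gene identifiers of the count table. It is made of 12 proteases, 8 glycosidases, 5 lipid-cleaving enzymes, 5 cofactor and lipid transfer genes, 5 membrane proteins and 13 V-ATPase genes (5 of the V0 or accessory sector, 8 of V1). Tissue was taken from mice (Mus musculus) after a high-fat diet of 16 weeks and its mRNA was sequenced. The 3 knockout libraries came from PD-1fl/fl Lyz2-Cre animals, in which Cre driven by the lysozyme 2 locus deletes the inhibitory receptor PD-1 from macrophages, neutrophils and other myeloid cells. The 3 control libraries came from PD-1fl/fl littermates, which carry the same floxed gene without Cre. Whether each library is its own animal is not in the labels, so every p-value measures the spread between these samples. Replicate numbers follow record order and pair nothing. Control replicate 2 is HF_7690_eWAT.

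Cathepsins, glycosidases and lipases work inside the lysosome at acid pH, which the V-ATPase maintains. This pump couples ATP hydrolysis by its cytosolic V1 sector to proton passage through its membrane V0 sector. Macrophages are rich in lysosomes, and in obese fat they surround dying adipocytes and digest the released lipid. Many lysosome genes are known targets of TFEB and its relatives TFE3 and MITF, factors that bind short DNA motifs near gene starts.

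Library totals were 20108185 to 27225533 counts. Pdcd1, the deleted gene, gave 19, 19 and 5 counts in the knockout libraries, and 13, 0 and 0 in the controls in replicate order. The counts of knockout replicates 1 and 2 were thus above every control, against the direction of a deletion, while knockout replicate 3 was below control replicate 1. Control replicates 2 and 3 were under the floor of 3 counts per library. T cells, outside the reach of Lyz2-Cre, also express it, so these counts do not check the genotypes, and the groups are named here as labelled. Control replicate 2 stood apart. Its 14 adipocyte markers averaged 4.76 log2(CPM + 1), where CPM is counts scaled to library size by TMM, against 8.66 to 10.12 in the other libraries, so the labelled tissue was not borne out there. Its 15 hepatocyte markers averaged 12.60. That list also averaged 8.12 in control replicate 3 and 5.49 in knockout replicate 2, with 1.18 to 2.70 in the others. Results are given with all 6 libraries and without control replicate 2, and the second set still holds control replicate 3 and knockout replicate 2.

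Sequence near the gene starts is shown first because it is what TFEB-family factors read. Promoters of RefSeq (build GRCm38.p6, 250 bases before to 50 after the start) were matched for 40 of the 48 genes. The E-box CACGTG is a palindrome and so the same on both strands. It was present in a promoter of 12 of the 40 genes (30%), against 8.09% of 27025 genes. The longer GTCACGTG, searched on both strands and always holding that E-box, was present in 9 (22.5%), against 2.55%. On both strands too, TCATGTGA, a related motif that can overlap neither, was found in 6 (15%: Atp6v0c, Ctss, Gla, Grn, Ppt1 and Tpp1), against 1.15%. GAGGAAGT, a motif of the ETS type read in myeloid cells by PU.1, shares at most 2 bases with an adjoining motif and was found in 4 (10%: Ctsc, Ctss, Gla and Gusb), against 3.69%. The following stretches hold no annotated exon base, run 5′ to 3′ along the gene, and have the E-box in capitals. Those of Lgmn and Atp6v1a lie inside the GENCODE span of the gene, before a RefSeq start that is internal to it. They come from genes that share the E-box and range in log2 fold change, knockout over control with all 6 libraries, from −0.02 (Mcoln1), 0.05 (Lamp1) and 0.35 (Atp6v0b) to 1.06 (Glb1), 1.27 (Atp6v1a), 1.45 (Ctsd) and 2.01 (Lgmn).
Lamp1 (chr8:13159081-13159160, plus strand): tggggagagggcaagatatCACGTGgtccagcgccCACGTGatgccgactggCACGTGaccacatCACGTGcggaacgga
Mcoln1 (chr8:3500377-3500456, plus strand): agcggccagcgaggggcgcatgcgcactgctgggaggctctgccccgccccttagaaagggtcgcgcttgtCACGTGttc
Atp6v0b (chr4:117887334-117887413, minus strand): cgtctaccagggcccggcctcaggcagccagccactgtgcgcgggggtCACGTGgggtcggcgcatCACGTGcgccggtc
Glb1 (chr9:114400990-114401069, plus strand): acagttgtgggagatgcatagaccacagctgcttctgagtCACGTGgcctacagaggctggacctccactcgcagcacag
Lgmn (chr12:102439102-102439181, minus strand): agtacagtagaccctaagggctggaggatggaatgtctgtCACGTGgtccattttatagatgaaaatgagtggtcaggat
Ctsd (chr7:142388039-142388077, minus strand): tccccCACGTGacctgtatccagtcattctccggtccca
Atp6v1a (chr16:44139351-44139430, minus strand): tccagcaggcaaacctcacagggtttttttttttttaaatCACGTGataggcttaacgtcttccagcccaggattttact
Lamp1 carries the E-box 4 times within these 80 bases. The 12 genes with an E-box had log2 fold changes from −0.02 (Mcoln1) to 2.09 (Gla), with a median of 0.82. The 28 genes without it had a median of 0.48. Without control replicate 2 these medians were 1.02 and 0.60. Genes with and without TCATGTGA had medians of 0.91 and 0.53, and of 1.03 and 0.66 without control replicate 2. For GAGGAAGT, held by 4 genes, the medians were 1.98 and 0.48, and 1.96 and 0.60 without control replicate 2. None of these differences was tested. Letters in a window are a description and not a bound site.

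Across the set, lysosome genes mostly had higher values in the knockouts, and the excess lay mainly in knockout replicates 1 and 2. The 48 genes took 2.76%, 3.70% and 1.59% of all counts in knockout replicates 1 to 3, versus 1.09%, 0.637% and 1.14% in control replicates 1 to 3. In whole tissue, more cells of a type and more RNA per cell cannot be told apart. Of the 48 genes, 37 had a log2 fold change above 0 with all 6 libraries, against 48% of the 15928 genes tested, and 45 did so without control replicate 2, against 47.1% of 16729. The median was 0.52, beside −0.03 over all genes, and 0.69 without control replicate 2, beside −0.04. A log2 fold change above 1, a doubling, was seen in 18 genes in each fit, where 11.4% and 10.2% of all genes had one.

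None of the 48 passed edgeR's quasi-likelihood test at an adjusted p of 0.05 in either fit. Nor did any other gene (0.0% of the genes tested in each fit), and the smallest adjusted p was 0.560 with all 6 libraries and 0.540 without control replicate 2. At an unadjusted edgeR p under 0.05, 14 members were higher and 0 lower (background 4.38% higher and 4.27% lower). Without control replicate 2 these counts were 16 and 0 (5.46% and 3.5%), and 11 members were in both sets. DESeq2, the alternative test, called 6 members higher and 0 lower (1.42% and 1.71% of the 16936 genes with an adjusted p), namely Ctss, Hexa, Gusb, Psap, Cd68 and Atp6v1b2. Without control replicate 2 it called those 6 plus Ctsd and Gla, again with 0 lower (2.22% and 0.683% of 16698 genes). These calls rested on single libraries: with knockout replicate 1 left out, 0 members remained called, with knockout replicate 2 left out 1 (Ctss), and with control replicates 1 or 3 left out 2 and 4 of the 6. With knockout replicate 3 left out all 6 remained among 12. Without control replicate 2, leaving out a further library gave 1 to 23 members, Ctss among them each time. On simulated counts with 200 genes changed, a large part of DESeq2's calls were of unchanged genes. That share depends on how many genes were changed, so it is not an estimate for the real calls. Counts at an unadjusted edgeR p under 0.05 were 8, 7 and 15 without knockout replicates 1, 2 and 3 and 9 and 8 without control replicates 1 and 3. For these fits with a library left out, by either tool, no share over all genes is given, so their member counts have no background here. The median log2 fold change was 0.35 without knockout replicate 2.

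**Figure D1:**
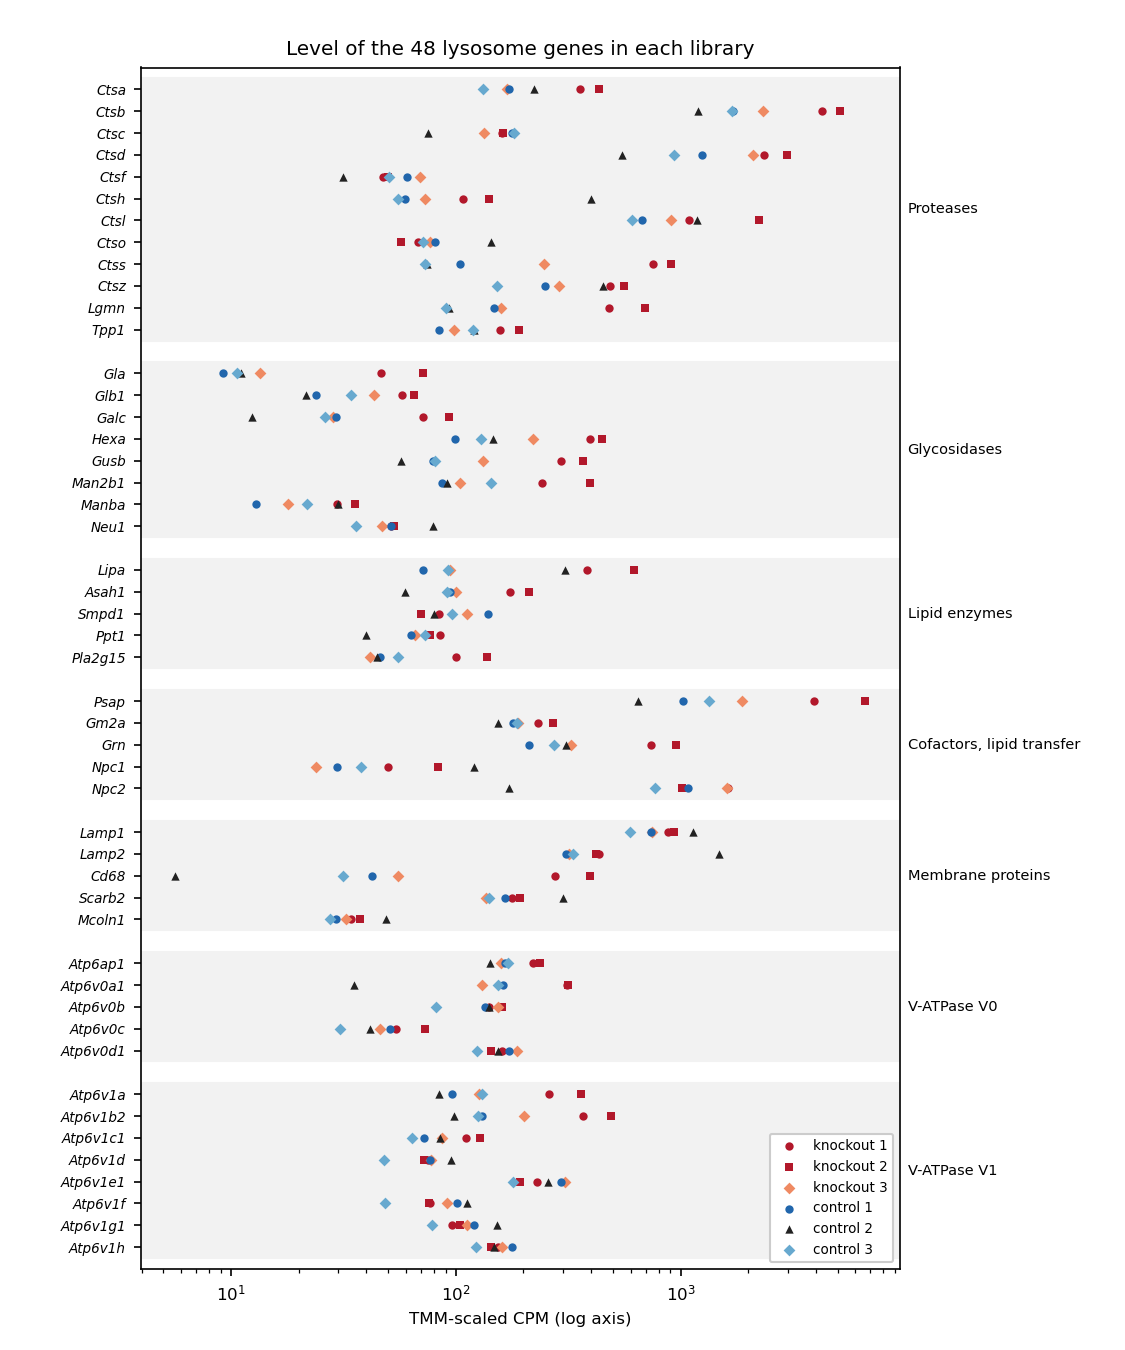
Level of each of the 48 genes in each library as TMM-scaled CPM on a log axis, 1 point per library, grouped by role. For 31 genes the highest point is knockout replicate 1 or 2, for 11 it is control replicate 2, and the Ctss points of the knockouts all lie above those of the controls.

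**Figure D2:**
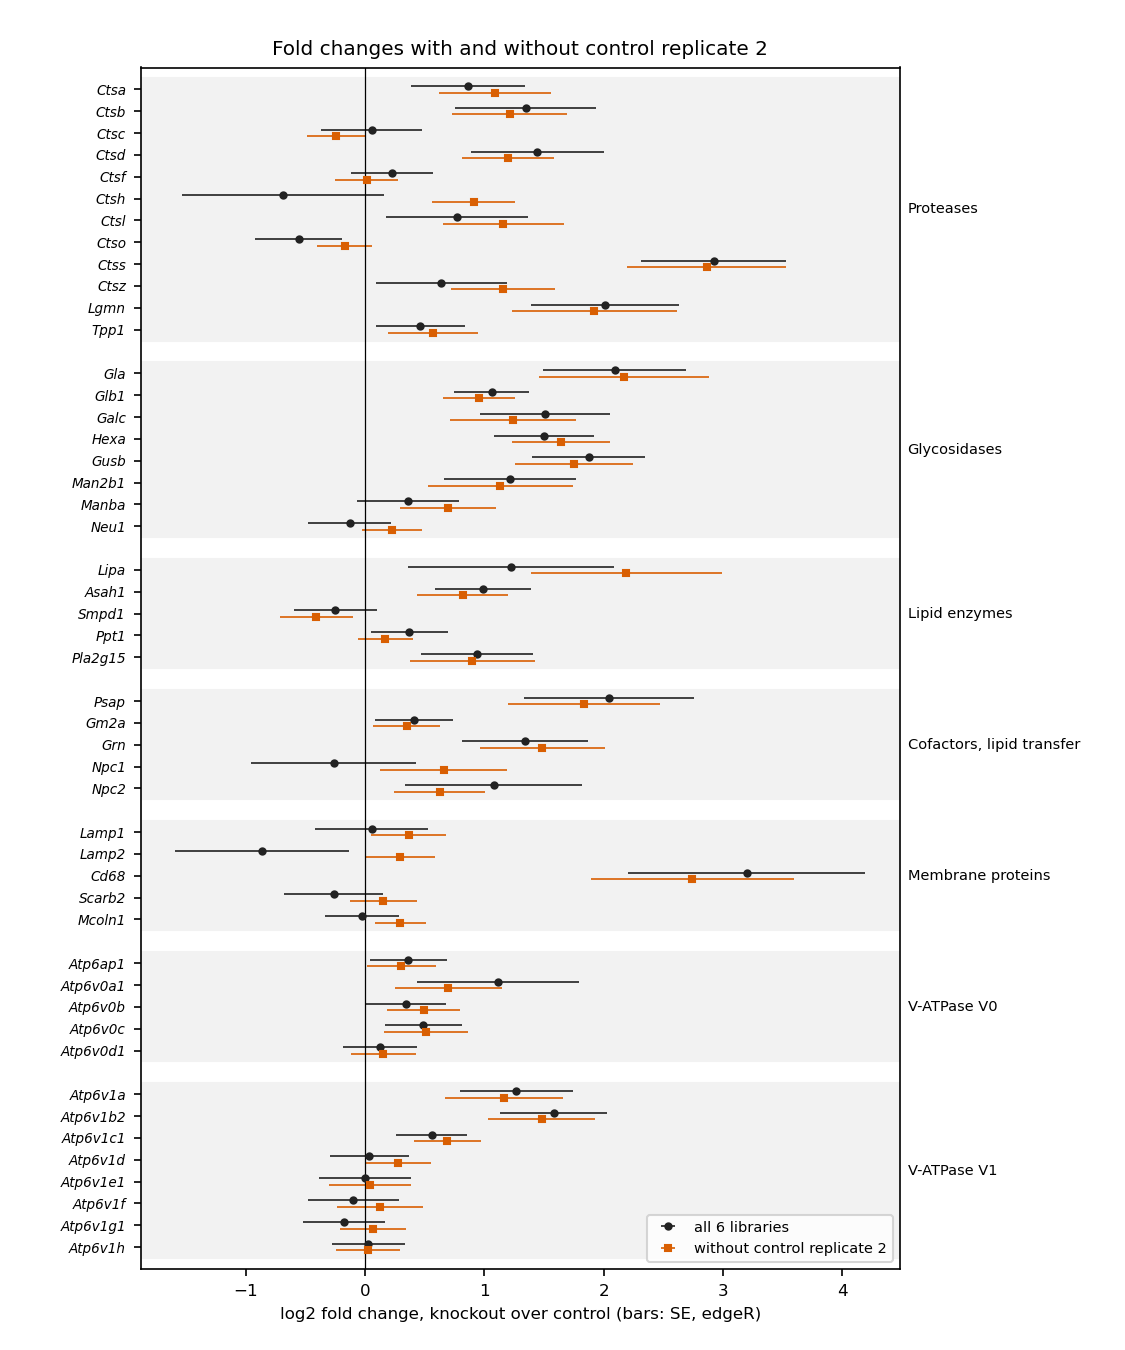
Log2 fold change of each gene, knockout over control, from edgeR with all 6 libraries (black) and without control replicate 2 (orange), with bars for 1 standard error. Points lie above 0 for 37 and 45 of the 48 genes, and Ctsh, Lamp2, Lipa and Npc1 move to the right when control replicate 2 is left out.

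In 15 members every knockout library lay above every control, and in 0 below, where 9.54% and 5.61% of all genes did. Without control replicate 2 this held for 22 members (13.4% of all genes), and 1 member, Ctsc, had every knockout below (12.3% of all genes). All these placements use CPM with the TMM factors of all 6 libraries, so control replicate 2 still entered the scaling. Close placements can differ under other scaling. Knockout replicate 3 was the lowest knockout in 37 of 48 genes. It stood above both control replicates 1 and 3 in 27 genes, between them in 15 and below both in 6. Knockout replicates 1 and 2 were both above those 2 controls in 37. For these placements of single knockout libraries no share over all genes is given, so whether they are particular to the set cannot be read from them.

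Proteases cut proteins and activate other hydrolases, and 10 of 12 had log2 fold changes above 0 in each fit. Ctss encodes cathepsin S, which trims the invariant chain of MHC class II in antigen-presenting cells (chromosome 3, 95526786 to 95556403, plus strand, mm10). It stood at 757, 909 and 246 CPM in knockout replicates 1 to 3, against 105, 74.8 and 72.9 CPM in control replicates 1 to 3. Every knockout was above every control, with knockout replicate 3 well below the other 2. The log2 fold change of Ctss was 2.92 ± 0.61 (SE), and 2.86 ± 0.66 without control replicate 2 (DESeq2 adjusted p 0.00126 and 0.00027). Ctsd, the aspartic protease cathepsin D (chromosome 7, 142375911 to 142388038, minus strand), had 2343, 2974 and 2108 CPM in the knockout libraries, against 1246, 549 and 932 CPM in the controls. Here all 3 knockouts, replicate 3 included, were above all controls, and control replicate 2 was the lowest library. Its log2 fold change was 1.45 ± 0.56 (SE) and 1.20 ± 0.38 (DESeq2 adjusted p 0.0649 and 0.0138).

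Cathepsin B (Ctsb), an abundant cysteine protease, had knockout values of 4268, 5103 and 2336 CPM and control values of 1711, 1196 and 1702 CPM. The groups did not overlap, and the log2 fold change was 1.34 ± 0.59 (SE) with all 6 libraries and 1.21 ± 0.48 without control replicate 2. Lgmn encodes legumain, which cuts after asparagine and processes cathepsins, and had 481, 696 and 158 CPM against 148, 93.3 and 90.1. Its values in knockout replicate 3 and control replicate 1 were close, while knockout replicates 1 and 2 were far above all controls. The Lgmn log2 fold change was 2.01 ± 0.62 (SE) and 1.92 ± 0.69. Ctsl, another broad cysteine protease, had 1089, 2233 and 906 CPM in knockouts versus 672, 1190.0 and 609.6 CPM in controls. Control replicate 2 lay inside the knockout range, and the log2 fold change of 0.77 ± 0.59 (SE) became 1.16 ± 0.51 without it.

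Control replicate 2 was the highest control for Ctsh and Ctsz. Ctsh, a cathepsin with aminopeptidase activity, had 107, 139.9 and 73.0 CPM in the knockout libraries, against 59.5, 400.5 and 55.5 CPM in the controls. With that single high control its log2 fold change was −0.69 ± 0.84 (SE), or 0.15 with library totals as the only scaling. Without it all knockouts were above both controls and the value was 0.91 ± 0.35. Ctsz, a carboxypeptidase, had 483, 561 and 287 CPM against 251, 452 and 152, with log2 fold changes of 0.64 ± 0.55 (SE) and 1.15 ± 0.44. Ctsa, the carboxypeptidase that also protects Glb1 and Neu1, had knockout values of 359, 432 and 169 CPM and control values of 172, 223 and 133 CPM. Its knockout replicate 3 lay between control replicates 1 and 3.

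Other proteases lay nearer 0. Ctsc, which activates the granule proteases of leukocytes, had 160.0, 162 and 133 CPM in knockouts versus 179, 75.3 and 182 CPM in controls. Control replicates 1 and 3 were above all knockouts, and the log2 fold change went from 0.06 ± 0.42 (SE) to −0.24 ± 0.24 without control replicate 2. For Ctso the values were −0.55 and −0.17, for Ctsf 0.23 and 0.01, and for Tpp1, a tripeptidase, 0.46 and 0.57. Over the 12 proteases the median log2 fold change was 0.71 with all 6 libraries and 1.12 without control replicate 2.

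Relative amounts within a library need no scaling between libraries, so the proteases, with the related Ctsk, were also compared by FPKM, a value per length. Ctsd took 30.2%, 29.5% and 43.8% of the summed protease FPKM in knockout replicates 1 to 3, versus 38.3%, 18.8% and 35.3% in control replicates 1 to 3. Ctsb took 15.9% to 25.1% in every library. The share of Ctss was 16.9%, 15.6% and 8.86% in knockouts, versus 5.57%, 4.43% and 4.78% in controls, so its groups did not overlap on this scale either. The log2 ratio of Ctss to Ctsb was −0.34, −0.33 and −1.09 in knockouts, versus −1.87, −1.84 and −2.39 in controls, a pair chosen after the values were seen and not tested. The share of Ctsh was 7.17% in control replicate 2 and 0.72% to 1.10% elsewhere.

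**Figure D3:**
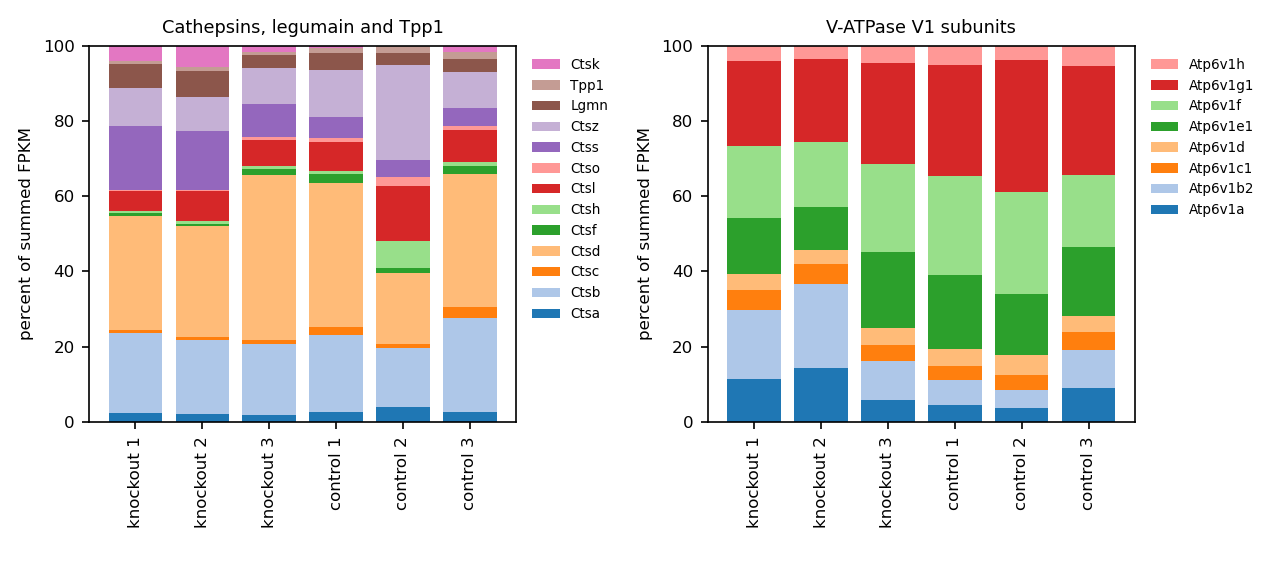
Share of each gene in the summed FPKM of the 13 proteases (left, Ctsk included) and of the 8 V1 subunits (right), 1 bar per library adding to 100 percent. Ctss is at 8.86% to 16.9% in knockouts against 4.43% to 5.57% in controls, and Atp6v1b2 is at 18.4% and 22.2% in knockout replicates 1 and 2 against 4.78% to 10.3% in the other libraries.

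Glycosidases remove sugars from glycolipids and glycoproteins, and log2 fold changes were above 0 for 7 of 8 with all 6 libraries and for each of the 8 without control replicate 2 (medians 1.36 and 1.19). Gusb, beta-glucuronidase (chromosome 5, 129989011 to 130003049, minus strand), had 295, 368 and 132 CPM in the knockout libraries, against 78.8, 56.9 and 80.7 CPM in the controls. All knockouts exceeded all controls, and replicate 3 was nearest to them. The Gusb log2 fold change was 1.88 ± 0.47 (SE) and 1.75 ± 0.49 (DESeq2 adjusted p 0.0244 and 0.0183). Hexa, the alpha subunit of beta-hexosaminidase (chromosome 9, 59539540 to 59565109, plus strand), had knockout values of 395, 447 and 221 CPM and control values of 99.2, 146 and 130.0 CPM. There too the groups were apart, at log2 fold changes of 1.50 ± 0.42 (SE) and 1.65 ± 0.41 (DESeq2 adjusted p 0.0496 and 0.00715). Hexa was the largest glycosidase per length in every library, at 46.8% to 58.7% of their summed FPKM.

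Gla, alpha-galactosidase A, which clears globotriaosylceramide, had 46.7, 71.5 and 13.4 CPM in knockouts versus 9.18, 11.1 and 10.6 CPM in controls. Controls were tight, knockout replicate 3 was just above them and the other knockouts were several times higher. The log2 fold changes of Gla were 2.09 ± 0.60 (SE) and 2.17 ± 0.71, and DESeq2 called it without control replicate 2 alone (adjusted p 0.0615 with all 6 libraries, 0.0367 without). Glb1, beta-galactosidase, had 57.8, 65.1 and 43.1 CPM against 23.8, 21.6 and 34.1, again with no overlap, and log2 fold changes of 1.06 ± 0.31 (SE) and 0.95 ± 0.30. Galc, which cleaves galactosylceramide, had 71.7, 93.5 and 28.3 CPM against 29.3, 12.4 and 26.2, where knockout replicate 3 and control replicate 1 overlapped.

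Man2b1 and Manba trim mannose from glycoproteins. Man2b1 had 243, 397 and 105 CPM in the knockout libraries, against 87.1, 91.0 and 143 CPM in the controls, with control replicate 3 above knockout replicate 3. Manba had 29.6, 35.6 and 17.9 against 12.8, 30.1 and 21.9 CPM, and its groups overlapped. Neu1, the lysosomal sialidase, had knockout values of 51.7, 53.3 and 47.2 CPM and control values of 51.4, 79.2 and 35.9 CPM. Its log2 fold change of −0.13 ± 0.35 (SE) became 0.23 ± 0.25 without control replicate 2, and it was 0.41 with library totals as the only scaling. The share of Neu1 in the glycosidase FPKM was 3.97%, 3.37% and 6.71% in knockouts, versus 13.0%, 15.8% and 7.41% in controls.

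Of the lipid-cleaving enzymes, Lipa had the widest range. It encodes lysosomal acid lipase, which frees fatty acids and cholesterol from ingested triglyceride and cholesteryl ester (chromosome 19, 34492318 to 34527474, minus strand), and had 384, 619 and 93.8 CPM in knockouts versus 71.1, 306 and 92.3 CPM in controls. Knockout replicates 1 and 2 were the highest libraries, control replicate 2 came next, and knockout replicate 3 equalled control replicate 3 to within 2 CPM. The log2 fold change of Lipa was 1.23 ± 0.86 (SE) with all 6 libraries and 2.19 ± 0.80 without control replicate 2. Asah1, acid ceramidase, had 175, 211 and 99.7 CPM against 94.0, 59.1 and 91.8, and every knockout was above every control by a small margin in replicate 3. Ppt1, which removes palmitate from proteins, had overlapping groups and log2 fold changes of 0.37 ± 0.32 (SE) and 0.17 ± 0.23. Pla2g15, a lysosomal phospholipase, had 100.1, 138 and 41.4 against 46.1, 44.5 and 55.4 CPM, with knockout replicate 3 the lowest library. Smpd1, acid sphingomyelinase, had 84.4, 70.2 and 112 CPM in the knockout libraries, against 139.6, 80.1 and 96.5 CPM in the controls, with log2 fold changes of −0.25 ± 0.35 (SE) and −0.41 ± 0.30. It was 1 of 2 members, with Ctso, below 0 in both fits, although Smpd1 was at 0.09 with library totals as the only scaling.

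Cofactors and lipid carriers present substrates to these enzymes. Psap encodes prosaposin, the precursor of the saposins that lift sphingolipids from membranes (chromosome 10, 60277627 to 60302597, plus strand). It had knockout values of 3928, 6656 and 1883 CPM and control values of 1028, 647 and 1339 CPM. All knockouts were above all controls, the nearest pair being knockout replicate 3 and control replicate 3. The Psap log2 fold changes were 2.05 ± 0.71 (SE) and 1.84 ± 0.64 (DESeq2 adjusted p 0.0394 and 0.0341). Grn encodes progranulin, which binds prosaposin and is cut in the lysosome, and had 737, 951 and 327 CPM in knockouts versus 213, 309 and 274 CPM in controls. Its groups were apart by a small margin, at log2 fold changes of 1.34 ± 0.53 (SE) and 1.49 ± 0.53. Gm2a, an activator protein that lifts a ganglioside from the membrane, had values of 232, 270.2 and 189.5 against 179.6, 154 and 186 CPM, a difference of 0.41 ± 0.33 (SE) on the log2 scale.

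Npc1 and Npc2 pass cholesterol out of the lysosome. Npc2, a soluble cholesterol carrier, had 1625, 1018 and 1617 CPM in the knockout libraries, against 1077, 172 and 768 CPM in the controls, and knockout replicate 2 was below control replicate 1. Npc1, the membrane protein that receives cholesterol from Npc2, had knockout values of 49.8, 83.0 and 24.0 CPM and control values of 29.7, 121 and 37.8 CPM. Control replicate 2 was the lowest library for Npc2 and the highest for Npc1. Log2 fold changes were 1.08 ± 0.74 (SE) and 0.62 ± 0.38 for Npc2. For Npc1 they were −0.26 ± 0.69 (SE) and 0.66 ± 0.53, with 0.44 when library totals were the only scaling.

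Cd68 had the highest log2 fold change of the 5 membrane proteins. It encodes a heavily glycosylated protein of macrophage endosomes and lysosomes and is itself used as a macrophage marker (chromosome 11, 69664213 to 69666153, minus strand). Its values were 276, 396 and 55.6 CPM in knockouts versus 42.3, 5.63 and 31.3 CPM in controls, and all knockouts were above all controls. The Cd68 log2 fold changes were 3.20 ± 1.00 (SE) and 2.74 ± 0.85 (DESeq2 adjusted p 0.0248 and 0.0101). Lamp1, an abundant structural protein of the lysosome membrane (chromosome 8, 13159161 to 13175338, plus strand), had 884, 938 and 744 CPM in the knockout libraries, against 740.0, 1133 and 598 CPM in the controls. Control replicate 2 was the highest library, knockout replicate 3 lay within 4 CPM of control replicate 1, and the log2 fold changes were 0.05 ± 0.47 (SE) and 0.37 ± 0.31. Lamp2, its paralogue with a role in autophagy, had knockout values of 432, 422 and 318 CPM and control values of 309, 1487 and 333 CPM. With control replicate 2, the highest library by far, the log2 fold change was −0.86 ± 0.73 (SE), and without it 0.29 ± 0.29.

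Scarb2, a lysosomal membrane protein also known as LIMP-II, had 178, 192 and 136 CPM in knockouts versus 166, 301 and 141 CPM in controls. Mcoln1, a lysosomal calcium channel, had 34.1, 37.3 and 32.3 CPM in the knockout libraries, against 29.2, 48.7 and 27.6 CPM in the controls, and knockouts were above both controls without control replicate 2. Log2 fold changes of Mcoln1 were −0.02 ± 0.31 (SE) and 0.30 ± 0.21, and those of Scarb2 −0.26 ± 0.41 (SE) and 0.15 ± 0.28. With library totals as the only scaling they were 0.49 for Mcoln1 and 0.30 for Scarb2, and this scaling moved the median of all genes from −0.03 to 0.34. The lysosome membrane genes other than Cd68 thus had log2 fold changes between −0.86 and 0.05 with all 6 libraries, and between 0.15 and 0.37 without control replicate 2.

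V-ATPase genes build the proton pump. All 13 had log2 fold changes above 0 without control replicate 2 and 10 with all 6 libraries, with medians of 0.30 and 0.35, against 0.91 and 0.86 for the other 35 members. The catalytic head of V1 is built from A and B subunits. Atp6v1b2, the widely expressed B subunit gene (chromosome 8, 69088646 to 69113711, plus strand), had knockout values of 368, 489.9 and 201 CPM and control values of 130.3, 97.8 and 126 CPM, with no overlap. Its log2 fold changes were 1.58 ± 0.45 (SE) and 1.48 ± 0.45 (DESeq2 adjusted p 0.0481 and 0.036). Atp6v1a, which encodes the A subunit that binds and splits ATP, had 259, 361 and 127 CPM in knockouts versus 95.8, 84.4 and 130.1 CPM in controls. Knockout replicate 3 was just below control replicate 3, and the log2 fold changes were 1.27 ± 0.47 (SE) and 1.16 ± 0.50. Atp6v1c1, a subunit that links V1 to V0, had 111, 128 and 86.7 CPM against 72.3, 85.3 and 63.5, with all knockouts above all controls and log2 fold changes of 0.56 ± 0.30 (SE) and 0.69 ± 0.28.

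The other 5 V1 genes lay near 0. Atp6v1h, a regulatory subunit, had 153, 144 and 161 CPM in the knockout libraries, against 178, 147 and 123 CPM in the controls, and knockouts lay within the control range (log2 fold changes 0.03 ± 0.30 (SE) and 0.03 ± 0.27). Atp6v1d, Atp6v1e1, Atp6v1f and Atp6v1g1 had log2 fold changes from −0.18 to 0.04 with all 6 libraries and from 0.04 to 0.28 without control replicate 2. The lowest, Atp6v1g1 (knockout values of 96.0, 105 and 112 CPM and control values of 121, 153 and 78.7 CPM), was at 0.32 with library totals as the only scaling. Complexes hold fixed numbers of each subunit, so the A and B genes were also set against H by FPKM within each library, a comparison chosen after the values were seen and not tested. The log2 ratio of Atp6v1b2 to Atp6v1h was 2.13, 2.64 and 1.19 in knockouts, versus 0.43, 0.28 and 0.90 in controls. That of Atp6v1a to Atp6v1h was 1.44, 2.01 and 0.35 in knockouts, versus −0.20, −0.11 and 0.76 in controls. Knockout replicate 3 was above all controls for the first ratio and below control replicate 3 for the second. Atp6v1b2 and Atp6v1a together made up a larger part of the V1 FPKM in knockout replicates 1 and 2 than in any other library.

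Among V0 genes, Atp6v0a1 encodes one of the a subunits that form the proton path and had 314, 315 and 131 CPM in knockouts versus 162, 35.1 and 154 CPM in controls. Knockout replicates 1 and 2 were high, knockout replicate 3 was below control replicates 1 and 3, and control replicate 2 was the lowest. Atp6v0c, the proteolipid of the rotor ring, had 54.2, 73.1 and 45.8 against 51.0, 41.7 and 30.7 CPM, and Atp6v0b 141, 161 and 154 against 136, 141 and 81.6 CPM. Atp6ap1, an accessory protein, had 220.1, 236 and 159 CPM in the knockout libraries, against 165, 143 and 171 CPM in the controls, with knockout replicate 3 below control replicates 1 and 3. Log2 fold changes of the 5 V0 genes ranged from 0.13 to 1.12, and 0.15 to 0.70 without control replicate 2.

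The d subunit of V0 has 2 mouse genes, of which Atp6v0d1 is widely expressed and Atp6v0d2 is known from osteoclasts and macrophages. Atp6v0d1 had knockout values of 160.4, 144 and 187 CPM and control values of 172, 154 and 124 CPM, with log2 fold changes of 0.13 ± 0.31 (SE) and 0.15 ± 0.27. Atp6v0d2, not among the 48 genes, had 198, 325 and 30.3 CPM in knockouts versus 4.42, 0.984 and 6.42 CPM in controls. Every knockout was above every control for Atp6v0d2, with log2 fold changes of 5.54 ± 1.15 (SE) and 5.12 ± 1.12 (DESeq2 adjusted p 3.03e-05 and 5.42e-07). DESeq2 also called Atp6v0d2 higher with each single library left out, in both fits. The log2 ratio of Atp6v0d2 to Atp6v0d1, on FPKM + 0.1, was −0.29, 0.58 and −3.21 in knockouts, versus −5.79, −7.52 and −4.81 in controls. The difference of means was 5.06 (exact two-sided permutation p 0.1, the smallest that 3 against 3 allows), and 4.32 without control replicate 2 (exact p 0.2, the smallest for 3 against 2). This pair was fixed with earlier results of these data known, so these p-values are not independent support. The d2 gene was thus at or near the level of the d1 gene per length in knockout replicates 1 and 2 and far below it elsewhere. Tcirg1, the a3 subunit gene, had 108, 193 and 50.8 CPM against 33.5, 46.1 and 26.6, again with no overlap, and log2 fold changes of 1.73 ± 0.54 (SE) and 1.99 ± 0.61. The log2 ratio of Tcirg1 to Atp6v0a1, the a1 gene, was −0.99, −0.15 and −0.81 in knockouts, versus −1.70, 0.93 and −1.96 in controls, where control replicate 2 was the highest library.

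**Figure D4:**
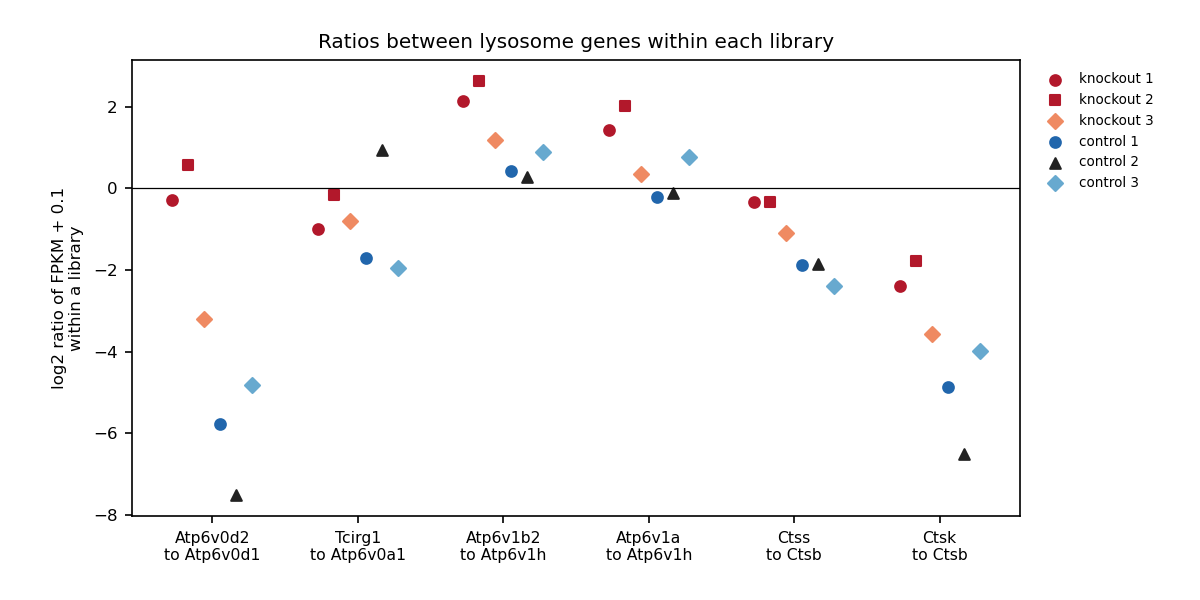
Log2 ratio of FPKM + 0.1 between 2 lysosome genes within each library, 1 point per library, for 6 pairs. The ratio of Atp6v0d2 to Atp6v0d1 runs from −3.21 to 0.58 in knockouts and from −7.52 to −4.81 in controls. That pair was fixed with earlier results of these data known, and the other 5 pairs were chosen after the values were seen.

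Lysosome genes outside the set, listed with earlier results known, had a lower median than the set, a difference that was not tested. Of 103 such genes, 91 were tested with all 6 libraries and 92 without control replicate 2. None passed edgeR at an adjusted p of 0.05, and 14 in each fit were higher at an unadjusted p under 0.05, where 4.38% and 5.46% of all genes were, and 0 and 2 were lower, where 4.27% and 3.5% of all genes were. DESeq2 called 6 and 10 of them higher (1.42% and 2.22% of all genes) and 0 lower (1.71% and 0.683%), and their median log2 fold changes were 0.43 and 0.39. The 6 were Atp6v0d2, Ctsk, Laptm5, Lyz2, Pld3 and Slc11a1, and 1 of them, Atp6v0d2, was still called without knockout replicate 1 and without knockout replicate 2. By list, DESeq2 called higher 3 and then 5 of 33 other hydrolases, 2 of 29 other membrane proteins in each fit, 1 of 8 and 2 of 9 other V-ATPase isoforms, 0 and 1 of 15 sorting and regulatory genes, and 0 of 6 cathepsin inhibitors in each fit.

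Ctsk, the collagen-degrading cathepsin K, had 204, 373 and 48.8 CPM in the knockout libraries, against 14.5, 3.13 and 26.7 CPM in the controls. It lies beside Ctss on chromosome 3 (95499256 to 95509362, plus strand) and, like it, had every knockout above every control (log2 fold changes 3.82 ± 1.05 (SE) and 3.38 ± 0.93, DESeq2 adjusted p 0.00684 and 0.00153). Pld3, an endolysosomal nuclease, had 219, 418 and 75.6 against 45.4, 24.7 and 49.3 CPM, with the same separation. Gaa, which breaks down glycogen, had a log2 fold change of 0.26 ± 0.31 (SE), which became 0.32 ± 0.30 without control replicate 2. Laptm5 and Slc11a1, lysosomal membrane proteins of blood cells and of macrophages, had log2 fold changes of 2.58 ± 0.79 (SE) and 2.94 ± 0.90 (SE), and of 2.19 ± 0.69 and 2.50 ± 0.75.

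Of the factors that act on lysosome genes, Tfeb had 27.9, 38.3 and 21.1 CPM in knockouts versus 9.29, 12.6 and 12.0 CPM in controls, with all knockouts above all controls. The Tfeb log2 fold changes were 1.37 ± 0.33 (SE) and 1.47 ± 0.35 (edgeR adjusted p 0.560 and 0.540, DESeq2 0.0613 and 0.0156). Tfe3 had 44.2, 59.7 and 23.9 CPM against 34.3, 28.1 and 38.2, and Mitf 22.4, 34.4 and 13.0 against 11.7, 6.44 and 14.1 CPM. In both genes knockout replicate 3 was below control replicate 3. Among sorting genes, Igf2r, the mannose 6-phosphate receptor that delivers hydrolases, had 126, 195 and 55.5 against 26.3, 37.1 and 72.5 CPM, with overlap. Of the cathepsin inhibitors, Cst3 had 907, 975 and 1433 CPM in the knockout libraries, against 1134, 314 and 651 CPM in the controls and was highest in knockout replicate 3. Cstb had 165, 184 and 129 against 125, 71.9 and 59.9 CPM and Serpinb6a 305, 393 and 302 against 255, 33.5 and 197 CPM, in each case with all knockouts above all controls. Cst7 was below 1 CPM in every library, and its value of −0.37 ± 0.69 (SE) was 0.07 with library totals as the only scaling.

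The macrophage marker list, which holds Lyz2 but not Cd68, was likewise highest in knockout replicates 1 and 2. Lyz2, the locus that drives Cre, is also among the lysosome genes outside the set. Without Lyz2 the list summed to 2567, 2928 and 1046 CPM in knockout replicates 1 to 3. In control replicates 1 to 3 that sum was 1073, 398 and 735 CPM. All 16 markers summed to 1422 to 5262 CPM in knockouts and 521 to 1373 CPM in controls, with none at 0 counts in any library. Their mean log2(CPM + 1) was 6.79, 6.95 and 5.49 in knockout replicates 1 to 3, versus 5.29, 4.15 and 5.07 in control replicates 1 to 3, and 15 of 16 had log2 fold changes above 0 (14 without control replicate 2). The 35 hydrolase, cofactor and membrane genes averaged 7.88, 8.15 and 7.15 in knockouts, versus 6.88, 6.96 and 6.86 in controls on the same scale. The V-ATPase genes averaged 7.23, 7.33 and 7.01 in knockouts, versus 6.95, 6.73 and 6.54 in controls. Adgre1, the F4/80 gene, had 268, 379 and 49.3 CPM against 28.9, 12.1 and 33.5 CPM, and Csf1r 302, 427 and 107 against 90.6, 46.7 and 100.2 CPM. In 9 of the 16 every knockout was above every control, where 9.54% of all genes were, and 7 overlapped. Without control replicate 2 these counts were 10 and 6, where 13.4% of all genes had every knockout above. Among those that overlapped, Mertk had knockout values of 37.0, 63.4 and 35.7 CPM and control values of 53.6, 15.4 and 52.8 CPM, and Cd163 knockout values of 46.5, 27.9 and 76.3 CPM and control values of 88.2, 25.0 and 66.4 CPM. The part of macrophage content in the lysosome values was not tested.

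Markers of other cells also differed between these libraries. In the knockout libraries fibroblast markers averaged 7.52, 8.41 and 6.86 log2(CPM + 1), versus control averages of 5.35, 3.60 and 6.87, with summed levels of 2070 to 8967 and 362 to 2238 CPM. B cell markers averaged 3.34, 3.90 and 1.93 in knockouts, versus 1.18, 1.36 and 2.03 in controls (summed 397 to 859 and 30.9 to 542 CPM), and T cell markers 2.49, 2.56 and 1.88 against 1.31, 0.98 and 1.43 (summed 43.6 to 125 and 9.93 to 18.7 CPM). All 9, 7 and 9 tested markers of these lists had log2 fold changes above 0 in both fits, and Pax5 and Cd8a had 0 counts in control replicate 2. Neutrophil markers summed to 14.6 to 30.9 CPM in knockouts and 18.6 to 248 in controls, with counts of Ly6g in control replicate 1 alone. The 11 markers of epididymis epithelium summed to 3.04, 18.0 and 5.28 CPM in knockouts, versus 56.0, 731 and 90.2 CPM in controls. With all 6 libraries 4 of them were tested, all with log2 fold changes below 0. Without control replicate 2, 6 were tested, with 4 below 0 and 2 above. Adipocyte markers averaged 9.10, 8.66 and 10.03 in knockouts, lower in replicates 1 and 2 than in control replicates 1 and 3 (10.12 and 9.69). Their part in the lysosome values was not tested.

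**Figure D5:**
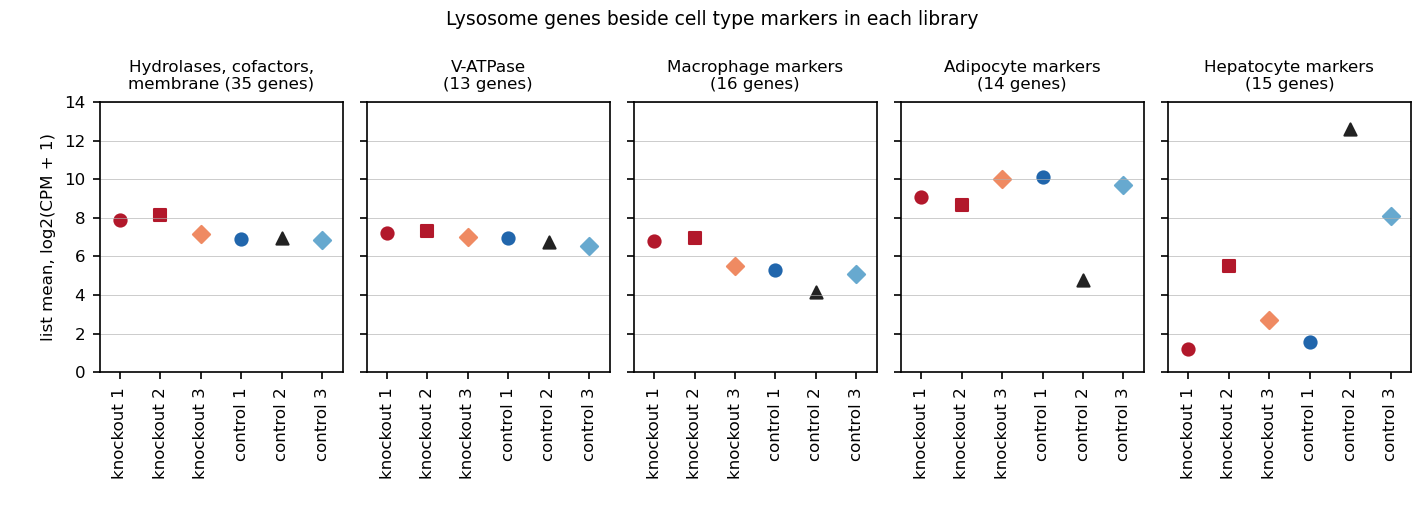
Mean log2(CPM + 1) of 5 gene lists in each library: the 35 hydrolase, cofactor and membrane genes, the 13 V-ATPase genes, and markers of macrophages, adipocytes and hepatocytes. Knockout replicates 1 and 2 are highest for the macrophage list (6.79 and 6.95) and for the 35 lysosome genes (7.88 and 8.15), and control replicate 2 is at 12.60 for hepatocyte markers.

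Titles of knockout replicate 3 and control replicate 3 carry numbers that begin with 90, and the labels do not say what the numbers mean. Within this pair, the median log2 ratio of the 48 genes was 0.36, beside −0.01 over all genes, with 36 genes higher in the knockout library. Between the mean of knockout replicates 1 and 2 and control replicate 1 the median was 1.03, beside 0.03 over all genes. Each of these comparisons has 1 control library, so neither was tested. With a term for these titles in the edgeR fit, the median over the 48 genes was 0.52 and 0 were called. In that fit 8 had an unadjusted p under 0.05, with no share over all genes given beside it.

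Control replicate 2 was the highest library for 11 of the 48 genes and the lowest for 17. Relative to the mean of control replicates 1 and 3 it held 6.97 times as much Ctsh, 4.63 times as much Lamp2, 3.75 times as much Lipa, 3.59 times as much Npc1 and 2.25 times as much Ctsz. It held 0.153 times as much Cd68, 0.187 times as much Npc2 and 0.223 times as much Atp6v0a1. Leaving it out turned 9 members from below 0 to above 0 and 1, Ctsc, the other way. The signs of 36 members above 0 and 2 below were the same in both fits.

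Exons of 15 members overlap those of another annotated gene, 13 of them on the opposite strand and 9 by 200 bases or more. The sources used here do not say whether counting used the strand, and reads from such pairs cannot be told apart. Among the genes above, Ctsb shares 774 bases with Fdft1, Ctsd 808 with Gm49369, Ctsa 495 with Pltp, Hexa 255 with Tmem202, Lamp1 249 with Grtp1, and Ctsl 1742 with the antisense gene Gm47123.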

How the data were processed

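RNA from 3 knockout and 3 control samples was analysed. Per the submitters' processing notes, the tools were featureCounts 1.5.0-p3, HISAT2 2.0.5, StringTie 1.3.3b and fastp (no version), and the build was mm10. For the strand setting and the annotation release, the sources used here say nothing. The authors deposited raw counts per gene, which are whole numbers for 54532 identifiers. The authors also deposited FPKM per gene, used here for ratios and shares within a library and for alternatives.

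Counts were tested with edgeR 4.0.16 in R 4.3.3 (quasi-likelihood, TMM, filterByExpr, Benjamini-Hochberg adjustment over all genes tested, threshold 0.05), once with all 6 libraries and once without control replicate 2. The TMM factor of control replicate 2 was 0.559, and others were between 0.982 and 1.25. SE is the absolute log2 fold change over the root of F. The single ratio was tested by exact permutation with scipy 1.17.1. Alternatives were DESeq2 1.42.0, limma 3.58.1, other scalings, filters and pseudocounts, a term for titles, and libraries left out. DESeq2 with each library left out, and a fit without control replicates 2 and 3 and knockout replicate 2, were added after seeing the data. Within each group no library was a copy of another (chi-square per degree of freedom 62.4 to 1235 between replicates). Knockout libraries were not compared with controls in this way. Symbols were matched for 54409 identifiers, gene positions are GENCODE vM21 on the mm10 assembly, and promoters are RefSeq's on GRCm38.p6.

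Members and lists were chosen with earlier results of these data known. Genes named with every library's value were a fixed selection plus, per list, those of smallest p and, per role, of lowest fold change. Ctsa, Ctsf, Ctso, Ctsz, Galc, Gla, Glb1, Man2b1, Manba, Ppt1, Tpp1, the Atp6v1d, Atp6v1e1 and Atp6v1f range and the marker genes were named after their values were seen. Some genes that the selection names are not reported here. On counts simulated from these libraries, edgeR with all 6 libraries called 0, 0, 0 and 6 of 50 genes changed 2-, 4-, 8- and 16-fold, and without control replicate 2 it called 0, 11, 30 and 39. DESeq2 called 4, 12, 33 and 40, and 6, 34, 38 and 46. It also called 93 of 15728 and 98 of 16529 unchanged genes, so a large part of its calls in simulation were false. The simulation changed 200 genes in each fit, and the false share depends on that number. Figures were drawn with matplotlib 3.10.9.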

Additional observations from a re-analysis of the deposited data

How the results depend on the processing

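No member passed edgeR's adjusted threshold under any setting of that test with either set of libraries, including each library left out in turn (0 members and 0 of all genes). DESeq2 called 6 members and 530 genes with all 6 libraries, and 8 members and 485 genes without control replicate 2. An unadjusted edgeR p under 0.05 gave 14 and 16 members, and 1377 and 1499 genes. Without control replicates 2 and 3 and knockout replicate 2, edgeR called 18 genes, none of them members. Leaving out single libraries gave DESeq2 counts of 0 to 12 members with all 6 and of 1 to 23 without control replicate 2, with no share over all genes beside them. It gave members' medians of 0.35 to 0.70, and of 0.48 to 0.97 without control replicate 2. The median was 0.98 with library totals and 0.82 without control replicates 2 and 3. The ratio of Atp6v0d2 to Atp6v0d1 was 4.29 to 6.18 with single libraries left out, 5.22 with 0.01 added to FPKM and 4.19 with 1 added.

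Of the 64 named genes, 48 kept the sign of their log2 fold change in every setting where they had a value, and 1028 of 1086 alternative values had the same sign and call. With library totals, signs turned for Atp6v1g1 (0.32), Cst7 (0.073), Ctsh (0.15), Mcoln1 (0.49), Neu1 (0.41), Npc1 (0.44), Scarb2 (0.30) and Smpd1 (0.090). Mcoln1 turned to 0.066 with limma-voom, 0.011 and 0.0018 with 0.1 and 1 added to FPKM, and 0.019 with no filter. Without control replicates 2 and 3, signs turned for Atp6v0d1 (−0.055), Atp6v1h (−0.20), Cst3 (−0.023), Ctsc (−0.22), Ctsf (−0.10), Ctsh (0.86), Lamp2 (0.35), Mcoln1 (0.26), Npc1 (0.83) and Scarb2 (0.040). With knockout replicate 2 left out as well, Atp6v0c was −0.015, Atp6v1h −0.16, Ctsc −0.27, Ctsf −0.033, Ctsh 0.61, Lamp2 0.29, Mcoln1 0.20 and Npc1 0.33. Over single libraries left out, the ranges that crossed 0 were −0.39 to 0.067 for Atp6v1g1, −0.089 to 0.17 for Atp6v1h, −0.63 to 0.016 for Cst7, −0.24 to 0.26 for Ctsc, −1.10 to 0.91 for Ctsh, −0.13 to 0.37 for Lamp1, −1.22 to 0.29 for Lamp2, −0.17 to 0.30 for Mcoln1, −0.36 to 0.23 for Neu1, −0.77 to 0.66 for Npc1, −0.46 to 0.15 for Scarb2 and −0.44 to 0.011 for Smpd1. Counting that fit of 3 libraries too, the ranges were −0.015 to 0.68 for Atp6v0c, −0.033 to 0.44 for Ctsf and −0.49 to 0.011 for Smpd1. The cause was not tested. No paired analysis was possible because the labels give no replicate numbers. In simulation with all 6 libraries, edgeR called 6 of 50 genes changed 16-fold and 0 of 50 at each smaller change, a limit of that fit. DESeq2 called 4, 12, 33 and 40 of 50 changed 2-, 4-, 8- and 16-fold. It also called 93 of 15728 unchanged genes, where edgeR called 1, so a large part of DESeq2's calls there were false. That share holds for the 200 genes changed in the simulation and is not an estimate for the real calls.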
